A study of Mus musculus with 3 samples.

Results

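The genes described here are 43 type I interferon-stimulated genes, taken from a fixed list of symbols. The list was chosen with earlier results of these data known. All 43 were listed in each of the 3 deposited count tables, out of 11979 genes that the tables share. Single-cell RNA libraries were made with a droplet 3′ kit from mouse brain cells that had been sorted as CD11b+ CD45+. This gate takes microglia together with other myeloid cells. Adult wild type (WT) animals gave 2 libraries, WT 1 and WT 2, each from 1 mouse. The third library came from 1 mouse deficient in MHC class II, which is described as having almost no CD4 T cells. The labels give no class II allele, strain or sex, and no age beyond adult for WT, and no treatment is named for any group. The comparison asks how brain myeloid cells differ in an animal that lacks most CD4 T cells. The deficient group is 1 animal, so spread between deficient animals was not measured, and its library and its genotype cannot be told apart.

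Type I interferons are secreted proteins, among them interferon beta, that bind a shared receptor made of Ifnar1 and Ifnar2. The receptor's kinases Jak1 and Tyk2 activate a transcription factor complex that contains Stat2 and Irf9 and binds the interferon-stimulated response element in target gene promoters. Target genes code for antiviral effectors, nucleic acid sensors and parts of the pathway itself. In the healthy brain, microglia are known to show a low tonic level of this response, with rare cells that express many of the genes strongly.

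The class II genes checked the genotype label. H2-Aa, H2-Ab1 and H2-Eb1, which code for chains of class II molecules, had 3016, 3831 and 2624 UMIs (unique molecular identifiers, counted molecules) in WT 1 and 3532, 4462 and 2939 in WT 2, and none of the 3 was listed for the deficient animal. The libraries held 4589, 4815 and 2278 barcodes with 16230216, 17293844 and 6616662 UMIs (WT 1, WT 2 and deficient, the order of every triplet of values here). Barcodes shared between libraries numbered 30 (WT 1 and WT 2), 19 (WT 1 and deficient) and 13 (WT 2 and deficient). Clusters made without the 43 genes gave 3903, 4398 and 2203 microglia-like cells, in which all 10 microglial markers had UMIs. Within that class the libraries stood apart: clusters 3, 6 and 9 held 1952 deficient cells (88.6%) but 83 (2.13%) and 176 (4.0%) of the WT cells. Immediate early and dissociation genes took a mean of 2.55%, 1.84% and 1.06% of the UMIs of a microglia-like cell. Summed neutrophil markers, all 9 of which were listed, stood at 1181, 616 and 48.5 CPM (UMIs of a gene scaled to a common library total) in the same cells. The part of these differences in the results below was not tested, beyond the cell sets named there.

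Upstream sequence from the RefSeq promoter table (build GRCm38.p6) was found for 33 of the 43 genes. The 10-letter core of the response element, GAAANNGAAA, or TTTCNNTTTC on the opposite strand, occurred in the 250 bases before a start site of 14 of the 33 genes (42.4%) and of 936 of 27025 genes in the table (3.46%). Matches can overlap one another, and a match describes letters, not binding. Among 16 genes called low-baseline, named below, 11 were in the table and 6 had a match. The 4 genes whose results bear most on what follows are shown, with matched letters in capitals and each sequence read 5′ to 3′ on the gene's own strand, ending just before the start site.
Isg15, chr4:156200819-156201068, minus strand: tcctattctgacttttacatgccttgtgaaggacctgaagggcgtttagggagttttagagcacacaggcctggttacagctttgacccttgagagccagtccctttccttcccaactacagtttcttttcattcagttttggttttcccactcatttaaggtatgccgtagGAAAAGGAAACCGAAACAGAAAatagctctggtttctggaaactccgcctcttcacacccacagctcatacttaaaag
Ifit3, chr19:34583279-34583528, plus strand: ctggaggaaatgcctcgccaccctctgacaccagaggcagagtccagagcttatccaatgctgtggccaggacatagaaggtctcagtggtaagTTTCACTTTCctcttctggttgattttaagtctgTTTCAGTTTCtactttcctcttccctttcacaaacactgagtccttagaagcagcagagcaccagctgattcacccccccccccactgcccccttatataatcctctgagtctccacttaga
Bst2, chr8:71537473-71537722, minus strand: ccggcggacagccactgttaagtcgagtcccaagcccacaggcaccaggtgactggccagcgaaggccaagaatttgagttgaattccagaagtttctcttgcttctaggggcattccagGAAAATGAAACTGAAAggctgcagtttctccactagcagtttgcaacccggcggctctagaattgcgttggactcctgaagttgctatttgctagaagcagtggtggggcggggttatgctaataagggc
Slfn2, chr11:83064862-83065111, plus strand: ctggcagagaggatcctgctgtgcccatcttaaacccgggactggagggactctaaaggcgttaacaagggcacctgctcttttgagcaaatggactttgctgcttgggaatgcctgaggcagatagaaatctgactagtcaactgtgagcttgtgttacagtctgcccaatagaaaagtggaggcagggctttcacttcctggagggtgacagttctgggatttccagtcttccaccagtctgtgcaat

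Isg15 and Ifit3 are classical strongly induced targets. Both carry repeated matches within 250 bases and neither passed the test between the genotypes. Bst2 carries 2 matches and rose in the deficient library, while Slfn2 has none in this window and rose as well. Of the genes that rose, 4 were in the promoter table and 1, Bst2, held a match.

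Summed over microglia-like cells, the 43 genes stood at 2067, 2100 and 2901 CPM. The WT libraries lay close together and the deficient library above both, by 0.48 on the log2 scale over the WT mean. Ly6e alone gave 848, 911 and 1392 CPM of these sums. Without Ly6e the sums were 1219.5, 1189 and 1509 CPM, a log2 ratio of 0.33. With 2 libraries against 1 no permutation test can reach a small p, so the sums carry none.

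Single genes were tested with edgeR on UMIs summed per library, across 11865 genes. Of the 43 genes, 42 passed the filter on low counts, 8 rose, 0 fell and 34 did not pass at an adjusted p of 0.05. Over all genes tested 896 passed (7.55%), of which 167 rose (1.41%) and 729 fell (6.14%). The median log2 fold change was 0.24 over the 42 genes and -0.0014 over all genes. The deficient library stood above both WT libraries for 28 of the 42 and below both for 5, against 40.0% and 40.5% of all genes. Because the list was chosen with earlier results of these data known, these contrasts with all genes are a description only. No test over the list was made. The gene not tested, Oasl1, had 8, 11 and 1 UMIs. DESeq2 called 5 of the 42, all higher, against 4.09% of all genes (0.464% higher and 3.62% lower) by that tool. In cells low in immediate early genes (1252, 2271 and 1729 cells) edgeR called 9 members (1.8% of all genes rose in that fit), and in cells with few UMIs of neutrophil, border-associated macrophage or monocyte markers (1697, 3328 and 2185 cells) it called 12 (1.98% of all genes rose), all higher.

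**Figure D1:**
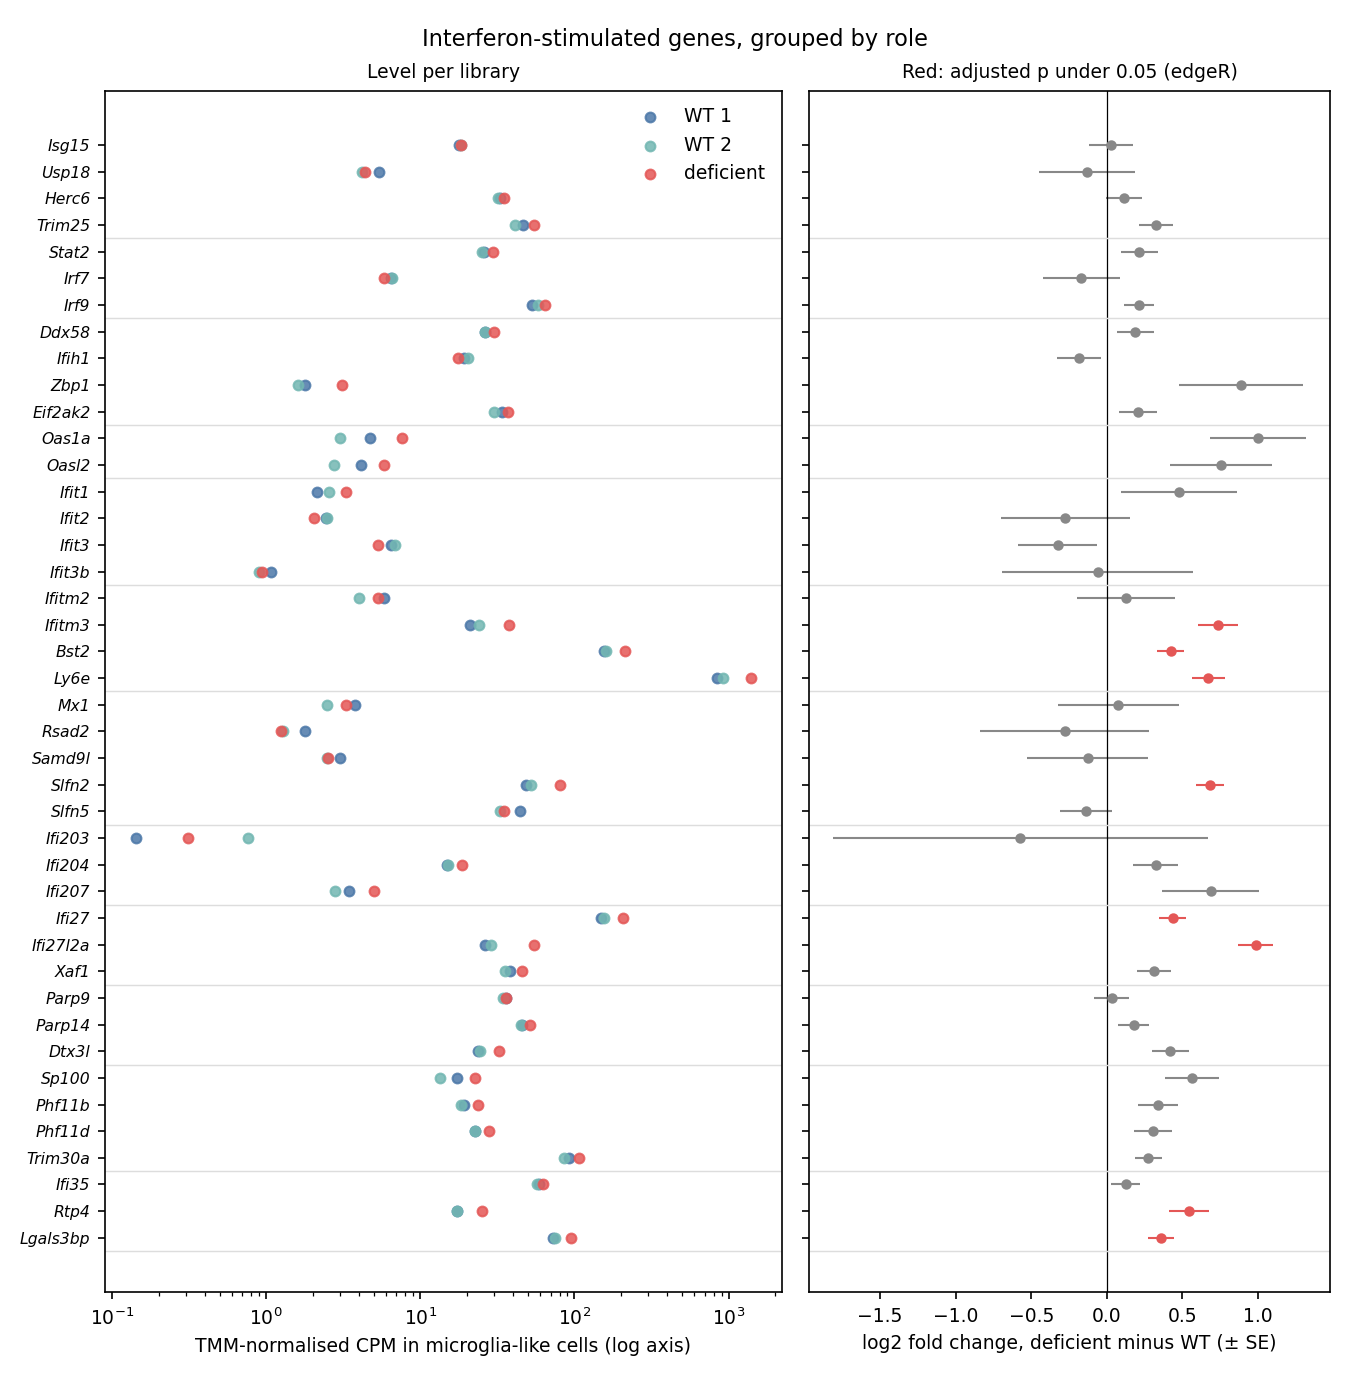
Level of each of the 42 tested genes in microglia-like cells of each library (left, TMM-normalised CPM on a log axis) and edgeR log2 fold change with its standard error (right), grouped by role with lines between groups. The 8 genes in red passed an adjusted p of 0.05 and all lie to the right of 0, and the low-level genes have the widest error bars.

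Membrane proteins that act against virus entry or release held 3 of the 8 genes that rose, among 4 members. Levels of single genes are TMM-normalised CPM in microglia-like cells. Ly6e, a lipid-anchored surface protein that restricts the entry of some viruses, stood at 842.4, 914.5 and 1398 CPM. Its log2 fold change was 0.67 (SE 0.11, adjusted p = 0.00200, edgeR). Bst2, or tetherin, holds budding virus particles at the cell surface, and stood at 155.5, 160.3 and 211.7 CPM. Its log2 fold change was 0.42 (SE 0.09, adjusted p = 0.0101, edgeR). For both genes the deficient value exceeded the WT values by far more than these differed from each other, and the call held in every setting in which they were tested. Ifitm3, which blocks fusion of viruses with endosomal membranes, stood at 20.96, 24.2 and 37.6 CPM (log2 fold change 0.74, SE 0.13, adjusted p = 0.00364, edgeR). Its rise was not called by DESeq2 (adjusted p = 0.0805). About 13.97% of the 50-base windows at its transcript end also occur in other genes, so its counts are less certain. Ifitm2, a relative whose 3′ end is shared to 41.9%, stood at 5.78, 4.02 and 5.31 CPM and did not pass.

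Over all retained cells in place of microglia-like cells, Ifitm3 turned to a log2 fold change of -0.69 (adjusted p = 0.0978, edgeR). Neutrophil-like cells made up 6.75%, 3.09% and 0.842% of all cells and held Ifitm3 at 950, 918 and 1900 CPM. The direction for this gene thus differs between the microglia-like class and the whole sort.

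The ISG12 family of small hydrophobic membrane proteins followed. Ifi27l2a stood at 26.2, 28.7 and 54.4 CPM. It had the largest change among the 8, 0.98 on the log2 scale (SE 0.11, adjusted p = 0.000144, edgeR). Over all retained cells it stood at 0.04 (adjusted p = 0.945, edgeR). Its neighbour on chromosome 12, Ifi27 (chr12:103434211-103440239, build GRCm38, GENCODE M21), stood at 149.3, 155.9 and 206.4 CPM. Ifi27 rose by 0.44 (SE 0.09, adjusted p = 0.00877, edgeR) and kept its call in every setting in which it was tested. Ifi27l2a lies at chr12:103442167-103443680 on the opposite strand, and the gene bodies do not overlap. Xaf1, which binds an inhibitor of cell death, stood at 38.0, 35.4 and 45.5 CPM and did not pass.

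Among the other effectors Slfn2, a Schlafen protein known for holding T cells quiescent, stood at 48.3, 52.1 and 80.6 CPM. Its log2 fold change was 0.68 (SE 0.09, adjusted p = 0.000563, edgeR), and 0.18 (adjusted p = 0.270) over all retained cells. The remaining members of that group did not pass. The GTPase Mx1 stood at 3.78, 2.49 and 3.28 CPM. Rsad2, or viperin, which makes a chain-terminating nucleotide, stood at 1.78, 1.28 and 1.25 CPM. For both, the deficient value lay inside or just beside the WT range. Slfn5 and Samd9l had log2 fold changes of -0.14 and -0.13.

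The other 2 genes that rose were Lgals3bp and Rtp4. Lgals3bp, a secreted glycoprotein that binds galectin-3, stood at 72.9, 74.8 and 94.7 CPM (log2 fold change 0.36, SE 0.09, adjusted p = 0.0250, edgeR). Rtp4, a membrane trafficking factor for receptors, stood at 17.4, 17.4 and 25.3 CPM (0.54, SE 0.13, adjusted p = 0.0272, edgeR). Both calls depended on the tool, since DESeq2 gave adjusted p values of 0.418 and 0.616. Lgals3bp was also not called in cells low in immediate early genes (adjusted p = 0.199, edgeR). Rtp4 was not called over all retained cells (0.0966), after thinning (0.680) or without clusters led by interferon genes (0.101). Ifi35, a leucine-zipper protein of the same group, stood at 58.6, 57.0 and 63.0 CPM and did not pass.

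The remaining 8 groups held no gene that passed. In the ISG15 group, Isg15, a ubiquitin-like modifier, stood at 17.8, 18.4 and 18.4 CPM, a log2 fold change of 0.03 (SE 0.14). Usp18, which removes ISG15 and restrains the receptor, stood at 5.42, 4.21 and 4.37 CPM. For both genes the deficient value lay inside the WT range. Trim25 and Herc6, ubiquitin ligase family members, had log2 fold changes of 0.33 and 0.11.

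The IFIT proteins bind viral RNA and are among the most inducible targets. Ifit1 stood at 2.14, 2.55 and 3.28 CPM, and Ifit2 at 2.42, 2.49 and 2.03 CPM. Ifit3 stood at 6.49, 6.83 and 5.31 CPM and Ifit3b at 1.07, 0.89 and 0.94 CPM. Adjusted p values (edgeR) were 0.553, 0.792, 0.551 and 0.970, and the 4 genes had no common direction. Of the Ifit3 transcript end, 14.9% of windows are shared with Ifit3b, so their counts may be split.

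Oas1a and Oasl2 belong to the OAS family, whose enzymes make the activator of RNase L. Oas1a stood at 4.71, 2.999 and 7.65 CPM and Oasl2 at 4.14, 2.74 and 5.78 CPM. Both were highest in the deficient library, with log2 fold changes of 1.0 (SE 0.32) and 0.76 (SE 0.34), and neither passed (adjusted p = 0.0946 and 0.249, edgeR). The WT libraries themselves differed for both genes, and 56.1% of the windows at the Oas1a transcript end are shared with Oas1g. Oas1a passed in cells low in immediate early genes (log2 fold change 1.59, adjusted p = 0.00331, edgeR) and in cells with few markers of other classes (1.10, adjusted p = 0.0378).

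Among nucleic acid sensors, Zbp1, which recognises Z-form nucleic acids, stood at 1.78, 1.60 and 3.12 CPM (log2 fold change 0.89, SE 0.41, adjusted p = 0.267, edgeR). The RNA helicases Ddx58 (RIG-I) and Ifih1 (MDA5) had log2 fold changes of 0.19 and -0.18, and the kinase Eif2ak2 (PKR) had 0.20. Among transcription factors of the pathway, Irf7, which drives interferon genes, stood at 6.42, 6.57 and 5.78 CPM. Irf9, which gives the complex its DNA binding, stood at 53.2, 57.6 and 64.2 CPM, and Stat2 had a log2 fold change of 0.22. In these groups the deficient values thus lay on both sides of the WT values.

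The HIN-200 proteins bind DNA and can start inflammatory signalling. Ifi204 stood at 14.8, 15.1 and 18.7 CPM, and the log2 fold changes of the 3 tested members ran from -0.57 for Ifi203, which had 2, 12 and 2 UMIs, to 0.69 for Ifi207. Parp9 and Dtx3l, partners in an ADP-ribosylation complex, and Parp14 had 0.03, 0.42 and 0.18. Dtx3l came nearest to passing (adjusted p = 0.0641, edgeR). All 4 nuclear and TRIM proteins stood above both WT libraries and none passed. Of these, Trim30a, a regulator of inflammatory signalling, stood at 92.2, 85.4 and 107.3 CPM (log2 fold change 0.27, adjusted p = 0.108, edgeR). Sp100, a nuclear body protein, had 0.57 (adjusted p = 0.0921, edgeR), and Phf11b and Phf11d had 0.34 and 0.31. The Phf11b transcript end shares 42.6% of its windows with Phf11c.

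A list of 16 genes, called low-baseline here, was used to look for strongly responding cells. The name is a label for a list and not a cut on level, since its 15 tested members had mean levels of 0.97 to 39.6 CPM and the other 27 genes 0.41 to 1052 CPM. The 16 are Isg15, Ifit1, Ifit2, Ifit3, Ifit3b, Usp18, Rsad2, Mx1, Oas1a, Oasl1, Oasl2, Irf7, Zbp1, Xaf1, Rtp4 and Ifi204. Their summed level in microglia-like cells was 129.5, 121.2 and 150.2 CPM, a log2 ratio of 0.26. Of the 15 that were tested 1 rose, Rtp4, with a median log2 fold change of 0.08. Of the other 27 genes 7 rose, with a median of 0.27. Among all genes tested 1.41% rose. The difference between the low-baseline genes and the other 27 was not tested.

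Other genes of the pathway were taken from a separate list of 61, of which 48 were tested, 4 rose and 1 fell, with a median log2 fold change of 0.13. Apobec3, a cytidine deaminase that acts on retroviruses, stood at 163.4, 156.9 and 238.2 CPM (0.57, adjusted p = 0.00126, edgeR). Shisa5 (0.36, adjusted p = 0.0487) and Epsti1 (0.35, adjusted p = 0.0417) passed narrowly in edgeR and not in DESeq2 or limma voom. Parp12, an antiviral ADP-ribosyltransferase, moved the other way, from 34.4 and 33.5 CPM to 9.22 CPM (log2 fold change -1.88, adjusted p = 9.87e-06, edgeR).

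The receptor and its kinases did not pass. Ifnar1 stood at 71.4, 70.3 and 76.9 CPM and Ifnar2 at 247.1, 235.6 and 243.7 CPM, and Jak1 and Tyk2 had log2 fold changes of 0.09 and 0.02. None of the 11 sensing genes upstream of interferon passed. Those with the most UMIs were Tmem173 (STING), at 290.5, 314.2 and 370.4 CPM, and Irf5, at 306.7, 306.0 and 276.7 CPM. The feedback inhibitor Socs3 stood at 454.0, 326.6 and 383.0 CPM, inside the WT range. In cells low in immediate early genes, a list that holds Socs3 itself, its log2 fold change was 0.60 (adjusted p = 9.56e-07, edgeR).

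The number of cells with a UMI was compared after thinning each cell to 1000 UMIs, since the deficient library was shallower (median 3376, 3326 and 2826 UMIs per microglia-like cell). This left 3847, 4346 and 2159 cells, with 56, 52 and 44 shallower cells left out. Ly6e was found in 55.5% (95% interval 53.9 to 57.1), 57.0% (55.5 to 58.5) and 72.5% (70.6 to 74.4) of cells. Intervals are exact Clopper-Pearson intervals and cover counting error only. Without thinning the shares were 89.4%, 90.3% and 94.5%. The deficient interval lies above both WT intervals, and the mean among cells that had Ly6e was 1.56, 1.61 and 1.94 UMIs.

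The same held for Ifi27, with 13.4% (12.3 to 14.5), 14.3% (13.3 to 15.4) and 18.4% (16.8 to 20.1) of thinned cells and 37.2%, 38.7% and 40.4% of unthinned ones. Bst2 was found in 14.1% (13.03 to 15.3), 14.01% (12.99 to 15.1) and 17.2% (15.7 to 18.9) of thinned cells, and in 39.3%, 39.1% and 39.5% of unthinned ones, which show no such difference. Slfn2 was found in 4.57% (3.94 to 5.28), 4.76% (4.15 to 5.44) and 7.87% (6.77 to 9.09), and unthinned in 12.5%, 12.8% and 16.6%. Ifi27l2a was found in 2.37% (1.91 to 2.896), 1.93% (1.54 to 2.39) and 3.66% (2.907 to 4.54), and unthinned in 5.69%, 6.25% and 7.99%. After thinning, the deficient interval of these genes too did not overlap the WT intervals. Lgals3bp was found in 5.87% (5.15 to 6.66), 6.99% (6.25 to 7.79) and 8.38% (7.25 to 9.63), where the deficient and WT 2 intervals overlap. Rtp4 was found in 1.66%, 1.54% and 1.99%, with overlapping intervals. The share of all genes with such separate intervals was not counted. The genes that rose were picked by a test on the same UMIs, so their intervals give no separate support. Isg15 was found in 1.35% (1.01 to 1.77), 1.45% (1.12 to 1.85) and 1.48% (1.02 to 2.09), and Ifit3 in 0.546%, 0.529% and 0.509%, which cannot be told apart at this depth. Ifitm3 was found in 2.11% (1.68 to 2.61), 1.77% (1.40 to 2.21) and 2.50% (1.88 to 3.25), with overlapping intervals, while its mean among cells that had it was 1.11, 1.26 and 1.48 UMIs. No cell class in these libraries is known to lack these genes, so the share that free RNA gives could not be set.

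**Figure D2:**
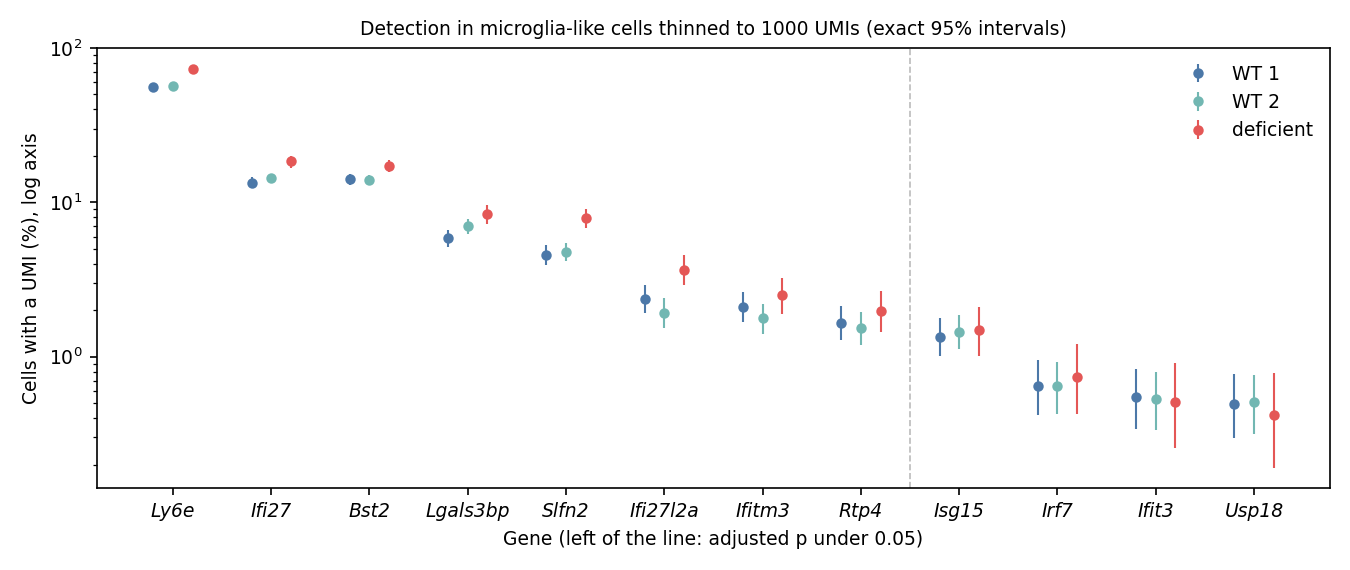
Share of microglia-like cells with a UMI (log axis, cells thinned to 1000 UMIs) for the 8 genes that rose, left of the dashed line, and 4 low-baseline genes that did not pass, with exact 95% intervals for counting error. For Ly6e, Ifi27, Bst2, Slfn2 and Ifi27l2a the deficient interval lies above both WT intervals, and for Lgals3bp, Ifitm3 and Rtp4 it does not. These 8 genes were picked by a test on the same UMIs, and the share of all genes with separate intervals was not counted. For Isg15, Irf7, Ifit3 and Usp18 all 3 intervals overlap.

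The distribution over cells shows where the higher sum lay. Per 1000 UMIs, a microglia-like cell held a mean of 2.09, 2.11 and 2.94 UMIs of the 43 genes, with an SD over cells of 1.98, 1.99 and 2.44. The share of cells with none was 16.4%, 16.2% and 8.29%. The median was 2 in each library, the upper quartile 3, 3 and 4, and the 99th percentile 8, 9 and 11. The lower quartile was 1 and the maximum 36, 35 and 36, so the shift shows in the share at 0 and from the upper quartile to the 99th percentile, and not in the median or the maximum.

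The difference in means, 0.838 UMIs per cell, was divided by rank of the cells within their library. The lowest 90% of cells held a mean of 1.65, 1.67 and 2.37 UMIs and accounted for 76.2% of the difference. The top 10% held 6.01, 6.08 and 8.04 UMIs and accounted for 23.8%. The ratio of deficient to WT was 1.43 in the lower cells and 1.33 in the top cells. Cells were ranked by the same low counts that were then averaged, so count sampling fills part of the top 10%. Neither the ratios nor the parts can thus show whether a responding upper tail changed. Much of the difference in means was Ly6e, whose mean went from 0.867 and 0.917 to 1.41 UMIs, a difference of 0.517. Without Ly6e, Bst2 and Ifi27, the 3 members with the most UMIs, the means were 0.915, 0.880 and 1.11, and the lowest 90% of cells accounted for 60.1% of the difference.

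**Figure D3:**
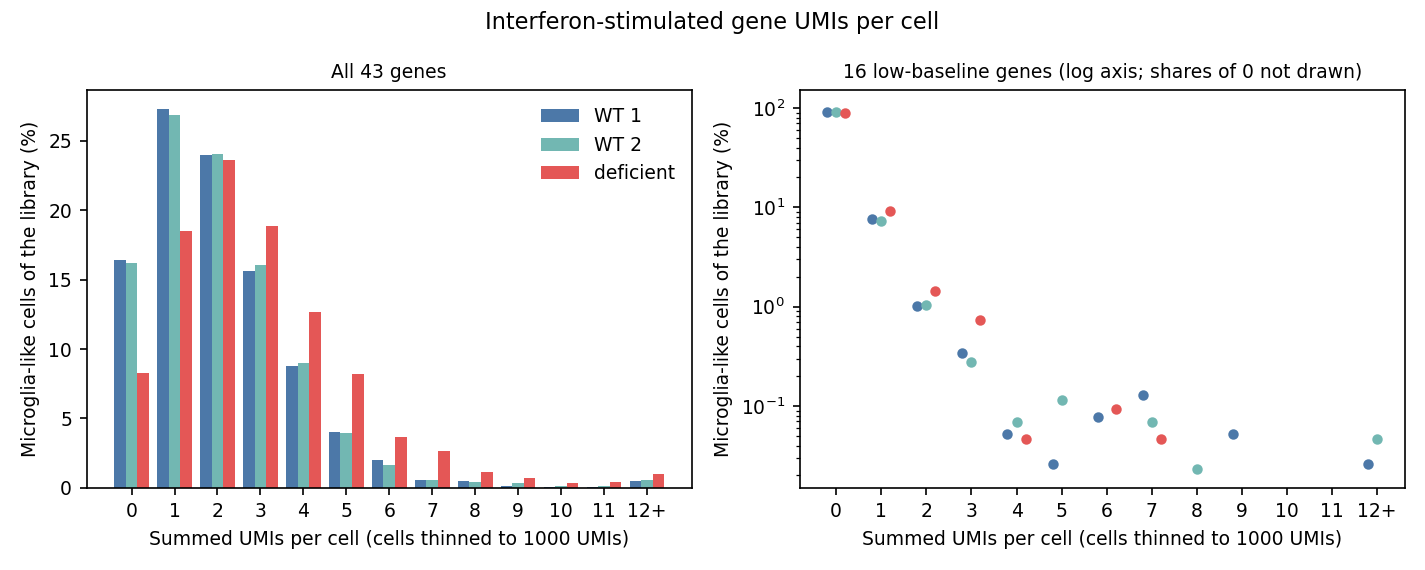
Summed UMIs per microglia-like cell (thinned to 1000 UMIs) for all 43 genes (left) and the 16 low-baseline genes (right, log axis, shares of 0 not drawn), as a share of each library's cells. On the left the deficient library has fewer cells at 0 and 1 and more from 3 upward; on the right 90.6%, 91.0% and 88.5% of cells lie at 0 and the upper values are mixed among libraries.

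Cells with a strong response were counted as those with UMIs of at least 3 different low-baseline genes among 1000 UMIs. This cut is a range on a count and not a cell type. Such cells numbered 23 (0.598%, interval 0.379 to 0.896), 20 (0.460%, 0.281 to 0.710) and 14 (0.648%, 0.355 to 1.09). The intervals overlapped, and a difference in this share was not detectable at this depth. Just below the cut lay 31, 35 and 29 cells with 2 different genes. At a cut of 2 genes the shares were 1.40%, 1.27% and 1.99% and at a cut of 4 genes 0.338%, 0.276% and 0.139%, so the order of the libraries depended on the cut. Unthinned, they were 2.08%, 1.82% and 2.59%. The highest number of different low-baseline genes in one thinned cell was 9 in each WT library and 6 in the deficient library.

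**Figure D4:**
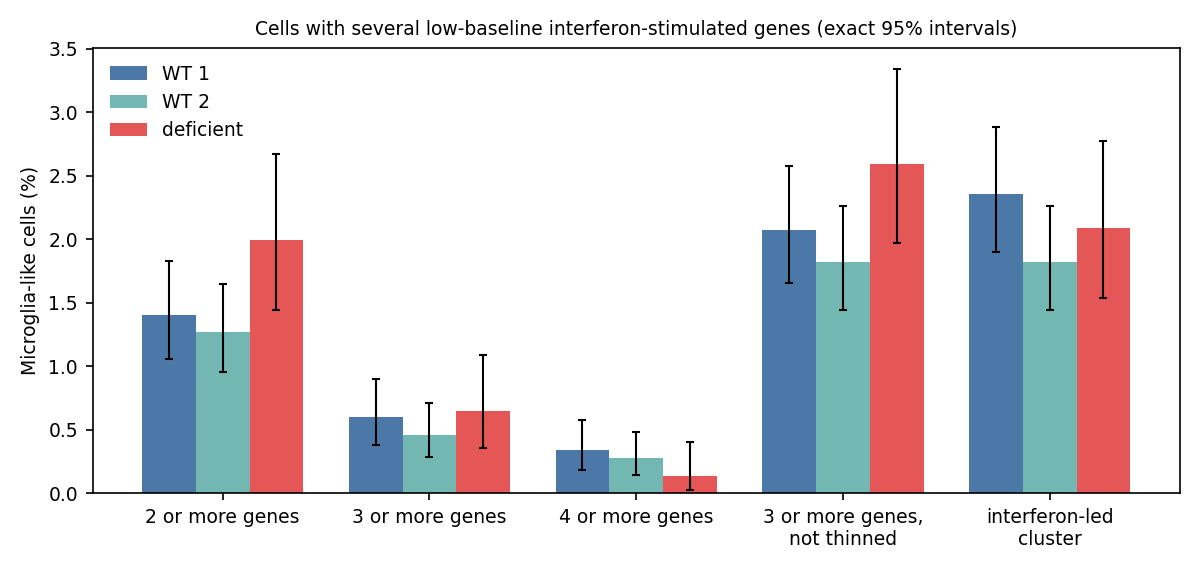
Share of microglia-like cells with at least 2, 3 or 4 different low-baseline genes per 1000 UMIs, with at least 3 without thinning, and in the cluster led by interferon genes, per library with exact 95% intervals for counting error. In each of the 5 definitions the deficient interval overlaps both WT intervals.

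The higher level was also present outside the high cells. In microglia-like cells with no UMI of any low-baseline gene (3487, 3956 and 1911 cells), the other 27 genes had a mean of 1.85, 1.87 and 2.61 UMIs, of which Ly6e gave 0.843, 0.902 and 1.37. In the high cells the 27 genes had means of 8.61, 10.2 and 11.9 UMIs. EdgeR was fitted again without the high cells and without the 56, 52 and 44 cells too shallow to thin, leaving 3824, 4326 and 2145 cells. In that fit 11 of these 27 genes rose and 0 fell, against 7 in the whole class. The parts of the high and the shallow cells in this change were not separated. Over all genes the number that rose also grew in that fit, from 167 to 276 (2.33%).

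When clustering was repeated with the interferon genes among the variable genes, one cluster was led by them. It held 92 (2.35%), 80 (1.82%) and 46 (2.09%) microglia-like cells. Because the genes chose these cells, the following levels are a description only, in CPM without TMM scaling. The low-baseline genes stood at 1987, 2249 and 1878 CPM inside the cluster, with the deficient library the lowest of the 3. Ifit3 stood at 197, 264 and 129 CPM inside and 2.35, 2.27 and 2.54 CPM outside. Ifi27 stood at 147, 231 and 194 CPM inside and 150, 153 and 206 CPM outside, so the inside level was near the outside level in WT 1 and the deficient library and higher in WT 2. Ly6e stood at 1510, 1784 and 2853 CPM inside and 832, 895 and 1359 CPM outside, higher in the deficient library in both places.

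Ifitm3 had a different pattern in this description. Inside the cluster it stood at 254, 365 and 860 CPM and outside it at 15.9, 17.9 and 19.2 CPM. The cluster held 25.9% and 26.2% of its UMIs in WT and 49.8% in the deficient library. Without clusters led by interferon genes its log2 fold change was 0.19 (adjusted p = 0.576, edgeR). In the fit without the high cells and the cells too shallow to thin, its log2 fold change was 0.47 (adjusted p = 0.0242, edgeR). That was smaller than 0.74 and still called. The low-baseline genes that chose the high cells do not include Ifitm3.

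Low-baseline genes were found together in cells far more often than independent detection would give. Over their 120 pairs, 234, 230 and 89 co-detections were counted, 9.59, 9.57 and 4.85 times the number that independence within the library gives. Over the 351 pairs of the other genes the ratio was 1.18, 1.18 and 1.15. These ratios come from thinned cells that share a library, and sets of pairs share genes. Ifi27l2a and Ifitm3 were found together in 15, 9 and 17 cells, 7.83, 6.05 and 8.60 times independence. Bst2 and Ifitm3 were found together in 35, 32 and 27 cells (3.06, 2.97 and 2.90 times). Ifi27 and Bst2 were found together in 78, 90 and 68 cells, a ratio of 1.07, 1.03 and 0.99, and Bst2 and Ly6e gave 1.05, 1.09 and 1.04. Ly6e was found in 55.5%, 57.0% and 72.5% of cells, which bounds its ratios far below those that rarer genes can reach. Its ratios are therefore not comparable with theirs. The named pairs without Ly6e were of both kinds, well above independence and near it.

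The genes that rose also differed in how they went with the low-baseline genes. Bst2 was found in 13.5%, 13.2% and 16.2% of cells with no low-baseline gene and in 40.7%, 41.8% and 48.8% of the 54, 55 and 43 cells with at least 2. Slfn2 went from 3.93%, 4.10% and 6.65% to 24.1%, 36.4% and 32.6%. Ifi27l2a went from 1.78%, 1.49% and 2.56% to 24.1%, 14.5% and 30.2%. Ifitm3 went from 1.49%, 1.16% and 1.67% to 24.1%, 32.7% and 25.6%. Lgals3bp went from 5.31%, 6.24% and 8.01% to 22.2%, 30.9% and 20.9%, and Ly6e from 54.7%, 56.6% and 72.3% to 72.2%, 81.8% and 81.4%. Rtp4 is itself a low-baseline gene and is left out here. Ifi27 stood at 13.4%, 14.3% and 18.6% of cells with none and at 12.96%, 16.4% and 18.6% of those with at least 2. The latter shares rest on 7, 9 and 8 cells with Ifi27. Within a library, the share of cells with Ifi27 thus differed by at most a few percentage points. Bst2, Slfn2, Ifi27l2a, Ifitm3, Lgals3bp and Ly6e were found more often in cells with at least 2 low-baseline genes.

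The microglial clusters made without these genes were compared where each library had at least 20 cells. Summed over the 43 genes, the deficient library stood above both WT libraries in 7 of 8 clusters. Without Ly6e, Bst2 and Ifi27 it did so in 6 of 8 (not clusters 0 and 4), and for the low-baseline genes in 5 of 8 (not clusters 0, 4 and 6). In cluster 3, which held most deficient cells and was led by Ccr6 and Tagap1, the level was 2430, 2406 and 3039 CPM (49, 106 and 1198 cells). In cluster 5, led by the early response genes Klf4 and Fosb, it was 1659, 1871 and 2772 CPM (376, 322 and 48 cells). In cluster 12, led by Itgax, Cst7 and Lpl, it was 2783, 2431 and 3789 CPM (41, 93 and 32 cells). Cluster 0 went the other way for the sum of 43 genes, at 2211, 2090 and 1800 CPM, with 26 deficient cells. Clusters 1, 2 and 4, above both WT libraries for that sum, also held few deficient cells, 20, 37 and 76.

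Other myeloid classes were few in the deficient library, and their levels are given as sums of UMIs with exact Poisson intervals that cover counting error only. Border-associated macrophage-like cells (73, 67 and 15 cells) stood at 5567 (5349 to 5792), 6724 (6492 to 6963) and 11093 (10281 to 11951) CPM. Non-classical monocyte-like cells (11, 12 and 15 cells) stood at 10184 (9329 to 11098), 10556 (9670 to 11502) and 20294 (18883 to 21782) CPM. The neutrophil-like cluster 10, led by genes of mature neutrophils such as Cxcr2 (171, 75 and 14 cells), stood at 4584, 5684 and 14171 CPM. Cluster 11, led by granule genes such as Camp and Ltf (122, 69 and 5 cells), stood at 2457, 2172 and 3732 CPM. The 4 groups of cells were each highest in the deficient library, cluster 11 on 5 cells. Ifitm2 and Ifitm3 gave a large part of these sums. Without them, non-classical monocyte-like cells stood at 5122, 4874 and 10028 CPM and cluster 10 at 2612, 3224 and 7662 CPM. Each group was still highest in the deficient library. Its cells were also shallower in each group, with medians of 4482, 3453 and 2202 UMIs in non-classical monocyte-like cells. Single cells varied widely, from 3691 to 31552 CPM among the 15 deficient border-associated macrophage-like cells and from 1161 to 49044 CPM in WT 2.

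**Figure D5:**
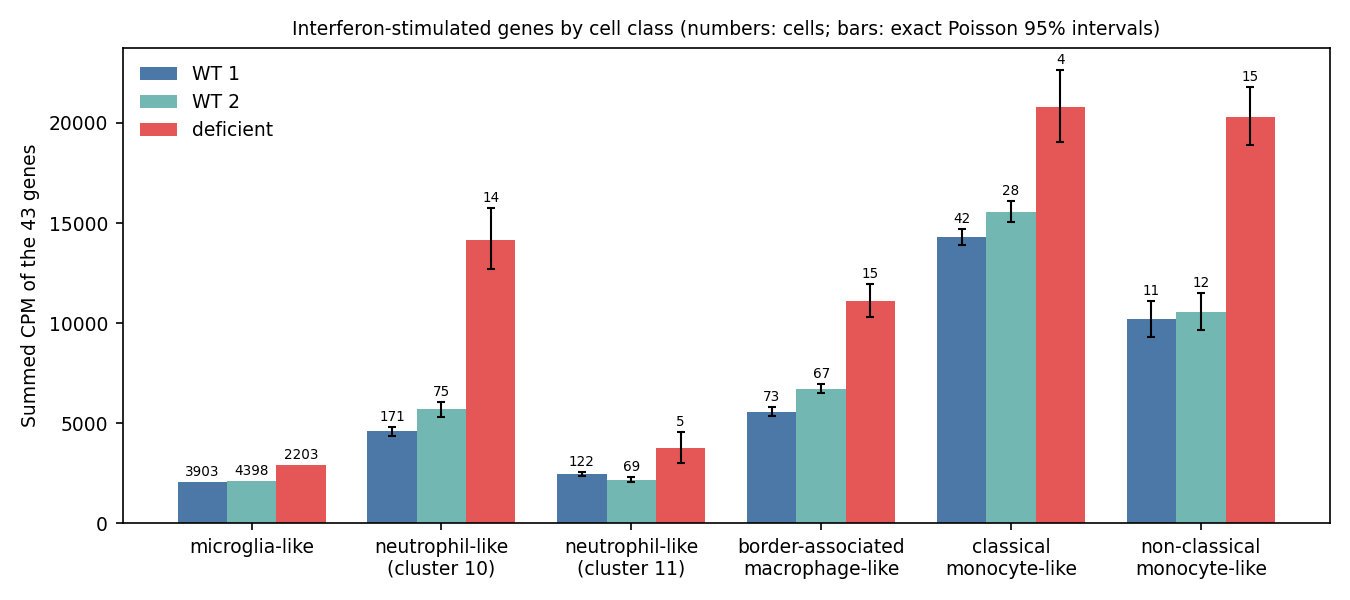
Summed CPM of the 43 genes in each cell class and library, with the number of cells above each bar and exact Poisson 95% intervals for all classes but microglia-like. The deficient bar is the highest in every class, from 2901 CPM in microglia-like to 20795 CPM in classical monocyte-like cells, which number 4 in that library.

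Few UMIs of interferon transcripts themselves were found. Ifnb1, interferon beta, had 4, 7 and 4 UMIs in 3, 6 and 2 microglia-like cells. In border-associated macrophage-like cells it had 11 UMIs in 2 of 73 cells of WT 1, none in 67 cells of WT 2 and 63 UMIs in 3 of 15 cells of the deficient library. Rsad2 had 6, 25 and 98 UMIs in the same class, and over all retained cells its log2 fold change was 1.58 (adjusted p = 0.0310, edgeR), in a fit where 6.9% of genes passed, 0.935% higher and 5.96% lower. Of the 43 genes, 5 rose and 2 fell over all retained cells. Both counts of UMIs rest on a handful of cells in 1 animal. Ifna4 was listed in no table.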

How the data were processed

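Each library has 1 deposited table of whole-number UMI counts, with genes in rows and barcodes in columns, which the authors did not normalise. Cells were sorted and captured with a 10x Genomics 3′ kit per the labels' protocols, and the submitters' processing notes name Cell Ranger 3.0, Seurat 2.2 and mm10 without their role. The members and gene lists were chosen with earlier results of these data known.

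Cells under 500 UMIs or 200 genes, or over 10% mitochondrial UMIs, were left out, leaving 4340, 4667 and 2257. Doublets were not removed and no caller was run. Counts were scaled to 10000 per cell and clustered on 2000 variable genes, without the 43 genes and other interferon genes, 30 principal components and Leiden resolution 1 (scanpy 1.11.5, leidenalg 0.10.2). A cluster was named from marker lists where at least 3 markers were found in 10% of its cells and their sum was at least 4-fold that of other cells, and otherwise as microglia-like where the microglial marker share was at least 0.5 times that of the median cell. The thresholds for naming were chosen with the data seen.

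UMIs were summed per library and class, since cells are not replicates, and tested with edgeR 4.0.16 (quasi-likelihood, TMM, filterByExpr, R 4.3.3). Calls use a Benjamini-Hochberg adjusted p of 0.05. The WT pair gives the test its 1 residual degree of freedom, which takes the deficient library to vary likewise. On simulated counts for this comparison (11865 genes), 100%, 84%, 96% and 100% of genes changed by -2, -1, 1 and 2 (log2) were called, with 5.47% of calls false. The simulation gave every library the same dispersion and no library effect, and changed only genes above a minimum WT level. Its rates thus do not carry over to low-level genes, to smaller changes or to data with a library effect. Alternatives used DESeq2 1.42.0, limma 3.58.1 voom, other filters, depths and cell sets, and each WT library left out. Settings with few markers of other classes (at most 0.1% of UMIs) and without Ly6e were added after the data were seen. Named with values in each library are the genes that passed, the 8 with the highest mean CPM and the low-baseline genes. Transcript ends were compared in windows of 50 bases over the last 500 bases (GENCODE M21). Values of 1 pathway gene outside the 43 are not reported here, though the counts over that list include it.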

Additional observations from a re-analysis of the deposited data

How the results depend on the processing

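The direction of the summed level and of the median log2 fold change held under every alternative run. The 8 calls became 5 with DESeq2, and the 896 calls over all genes became 485. Over all retained cells the median fell to 0.15, from 0.24, and the summed log2 ratio to 0.35, from 0.48. That ratio was 0.23 as a mean of log2 CPM plus 1 over genes and 0.33 without Ly6e. The difference in the share of cells with several low-baseline genes, 0.119 percentage points, was 0.657 at a cut of 2 genes, -0.168 at 4 genes, 0.571 at 2000 UMIs, 0.640 without thinning and 0.294 over all retained cells. The part of the difference in summed UMIs from the lower cells, 76.2%, was 77.2% at 2000 UMIs, 76.8% with another random seed, 62.5% for the lowest 80% of cells, 86.0% for the lowest 95% and 60.1% without the 3 members with the most UMIs. For the low-baseline genes the division (59.8%) carries no information, because the lowest 90% of WT cells hold none of them. Reversed over all retained cells were Ifitm3 (log2 fold change -0.69) and Rsad2 (1.58), and Socs3 reversed in cells low in immediate early genes (0.60). The cause was not tested. Without WT 1 or without WT 2 the ranges were 0.21 to 0.29 for the median, 0.47 to 0.49 for the summed ratio, 0.051 to 0.188 percentage points for the share and 76.1% to 76.3% for the part from the lower cells. Of those values, the medians are of log2 ratios of CPM plus 1 and the summed ratios are log2 ratios of CPM, with no test. No paired analysis was possible because the deficient group has 1 library.

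Shares of cells with several low-baseline genes rest on 23, 20 and 14 cells. Spread among deficient animals was not measured. Shared 3′ ends limit Oas1a, Ifitm2, Ifitm3, Phf11b and Ifit3.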
